A study of Mus musculus with 8 samples.

Results

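Vmn2r116, Vmn2r65, Vmn2r53 and Vmn2r88 are the vomeronasal type 2 receptors with a reported peptide, protein or predator cue that were examined here, and they were picked by name from the literature on their ligands. They are 4 of the 122 intact Vmn2r genes in the count data, where intact means annotated as protein-coding, and all 4 were among the 20601 genes with enough counts to test, of 48831 genes in all. The RNA came from the vomeronasal epithelium, the pheromone-sensing tissue of the nose, of 8-week-old C57BL/6J mice. Of the 8 libraries, the flushed males (labelled replicates 1 and 3) and the flushed females (replicates 2 and 3) each came from 1 mouse, and the 2 non-flushed male and 2 non-flushed female libraries were each a pool of 2 mice. The extract protocol attached to every library speaks of mice cleared of blood with heparin, so the preparation was taken from the description of each library. The labels give no mutation and no drug treatment for any group.

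Basal sensory neurons of the vomeronasal epithelium express Vmn2r receptors, class C G protein-coupled receptors whose long extracellular part binds peptides and proteins. Each such neuron is known to express a single receptor of the variable Vmn2r families together with a co-receptor of family C, the broadly expressed Vmn2r1 to Vmn2r7. Vmn2r116 is the receptor for ESP1, a peptide of male tear fluid that promotes sexual receptivity in females. Vmn2r65 and Vmn2r88 have been tied to pup and blood cues, Vmn2r65 to submandibular gland protein C and Vmn2r88 to haemoglobin. Vmn2r53 responds to a cystatin-related protein of rat tears, a predator cue.

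The genes lie at separate places in the mouse genome (GRCm38). Vmn2r116 spans chr17:23384803-23403908 on the plus strand, Vmn2r65 spans chr7:84918223-84964009 on the minus strand, Vmn2r53 spans chr7:12572998-12606544 on the minus strand and Vmn2r88 spans chr14:51411001-51420712 on the plus strand. The nearest intact Vmn2r gene was Vmn2r115 for Vmn2r116, at 16.3 kb, and Vmn2r54 for Vmn2r53, at 5.68 kb. It was Vmn2r66 for Vmn2r65, at 17.5 kb, and Vmn2r89 for Vmn2r88, at 31.2 kb. Translated coding sequences were 51.6% identical between Vmn2r116 and Vmn2r65, 49.1% between Vmn2r116 and Vmn2r88 and 49.3% between Vmn2r65 and Vmn2r88. Vmn2r53 stood apart from the other 3, at 32.4 to 34.1% identity.

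Each gene has closer relatives elsewhere in the family. For all but Vmn2r65, some stretches of 100 coding bases, the length of a read, also occur in other genes. The closest by protein identity were Vmn2r117 (87.9%) for Vmn2r116, Vmn2r77 (59.9%) for Vmn2r65, Vmn2r54 (91.1%) for Vmn2r53 and Vmn2r-ps159 (90.2%) for Vmn2r88. The symbol of the last marks a pseudogene, but the annotation used has it as protein-coding, on chromosome 4. The 3 pairs with a near relative are given at the gap-free 100 bases within a coding exon at which the pair differs most, on the coding strand, with the mismatched bases in capitals. The windows are chr17:23386049-23386148 for Vmn2r116 and chr17:23478280-23478379 for Vmn2r117, chr7:12581477-12581576 for Vmn2r53 and chr7:12615240-12615339 for Vmn2r54, and chr14:51418778-51418877 for Vmn2r88 and chr4:156338956-156339055 for Vmn2r-ps159.
Vmn2r116: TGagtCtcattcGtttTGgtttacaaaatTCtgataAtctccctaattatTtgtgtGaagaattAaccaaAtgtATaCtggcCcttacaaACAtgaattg
Vmn2r117: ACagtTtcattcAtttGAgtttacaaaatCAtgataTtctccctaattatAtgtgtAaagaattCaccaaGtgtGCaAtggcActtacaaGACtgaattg
Vmn2r53: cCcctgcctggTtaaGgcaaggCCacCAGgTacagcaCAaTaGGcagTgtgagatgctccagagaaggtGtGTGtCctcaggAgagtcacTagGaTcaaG
Vmn2r54: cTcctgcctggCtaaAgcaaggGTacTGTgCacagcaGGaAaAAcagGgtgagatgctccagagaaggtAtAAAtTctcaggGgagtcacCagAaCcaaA
Vmn2r88: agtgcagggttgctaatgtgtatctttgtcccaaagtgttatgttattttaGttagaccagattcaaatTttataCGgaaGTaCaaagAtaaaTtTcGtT
Vmn2r-ps159: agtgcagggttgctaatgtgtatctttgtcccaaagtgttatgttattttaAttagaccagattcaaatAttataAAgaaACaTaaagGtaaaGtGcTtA

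These windows held 20 mismatches between Vmn2r116 and Vmn2r117, 25 between Vmn2r53 and Vmn2r54 and 12 between Vmn2r88 and Vmn2r-ps159. Elsewhere the coding sequences can be identical over a whole read. Of all 100-base windows of the coding sequence, 120 of 2469 (4.86%) in Vmn2r116, 278 of 2535 (10.97%) in Vmn2r53 and 124 of 2472 (5.02%) in Vmn2r88 also occurred in transcripts of another gene, and 0 of 2436 did in Vmn2r65. The gene that shared most windows was Vmn2r54 for Vmn2r53 (215 windows), Vmn2r112 for Vmn2r116 (74) and Vmn2r89 for Vmn2r88 (65), so it was the closest protein relative for Vmn2r53 and another Vmn2r gene for the other two. Reads with several alignments had been divided between genes, and the deposited counts were not whole in 8 of 8 libraries for Vmn2r53 and Vmn2r88, 7 for Vmn2r116 and 4 for Vmn2r65. The counts of all 4 receptors thus include reads divided with other places in the genome. For Vmn2r65 the windows covered only the coding sequence, a small part of its long exon model.

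Library totals were 22101913 to 24965088 counts in the flushed libraries and 18763557 to 22096792 in the non-flushed pools. Intact Vmn2r genes together took 0.273 to 0.348% of all counts in flushed libraries and 0.138 to 0.162% in pools. Markers of vomeronasal neurons were present in every library, among them Omp at 341 to 409 CPM, a count scaled to library size, in flushed libraries and 361 to 484 CPM in pools, and Gnao1, the G protein subunit of basal neurons, at 47.8 to 58.9 CPM in flushed libraries and 55.2 to 59.9 CPM in pools. Trpc2, the transduction channel gene, was listed at 0 in all 8 libraries, where its exons overlap a readthrough gene and reads on more than 1 gene had not been counted. Some markers of other tissue moved with the preparation. The summed level of 8 erythroid genes was 106 to 622 CPM in flushed libraries and 1648 to 2057 CPM in pools, and that of 8 fibroblast and matrix genes was 17640 to 23261 CPM in flushed libraries and 36468 to 47022 CPM in pools. All 8 erythroid genes fell in flushed libraries, whereas of the fibroblast and matrix genes 5 fell, Dcn (0.28) and Lum (0.32) rose and Pdgfra (-0.19) did not pass, as log2 differences. Of all 20601 genes tested, 4656 were called higher and 4721 lower. The summed levels of ciliated cell markers were 416 to 848 CPM in flushed libraries and 506 to 745 CPM in pools, those of sustentacular cell markers 922 to 1462 CPM in flushed libraries and 1208 to 1328 CPM in pools, and those of glandular markers overlapped too. Some single genes were called. Of 6 ciliated cell markers 1 fell, of 6 sustentacular cell markers 2 fell and 1 rose, and of 7 glandular markers 3 fell. No measured gene of these lists was at 0 in all libraries, and their part in the receptor differences was not tested.

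Vmn2r88 was the most abundant of the 4 receptors and Vmn2r65 the least abundant per exon length. Vmn2r88 had 33.1 and 25.1 RPKM, the CPM divided by the kilobases of exon in the gene model, in flushed males and 32.1 and 28.4 RPKM in flushed females, against 12.1 and 11.6 RPKM in male pools and 10.8 and 11.4 RPKM in female pools. Its mean RPKM of 20.6 ranked 7 of the 122 intact Vmn2r genes, whose median was 1.51 RPKM, and its rank was between 4 and 7 in every library. Vmn2r53 averaged 4.01 RPKM and ranked 21, and Vmn2r116 averaged 3.55 RPKM and ranked 24. These neighbours in the order overlapped, at 2.44 to 5.88 RPKM for Vmn2r53 and 1.92 to 5.96 RPKM for Vmn2r116 over the 8 libraries. Vmn2r65 averaged 0.754 RPKM, within 0.370 to 1.19 RPKM, and ranked 85.

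The rank of Vmn2r65 depended on the length used. Its gene model in the count files has 24484 exonic bases, of which a single exon accounts for 22866 and the coding sequence for 10.35%, while the models of Vmn2r116, Vmn2r53 and Vmn2r88 have 4615, 10893 and 4407 exonic bases. The coding sequences are of nearly 1 length, from 2535 bases in Vmn2r65 to 2634 in Vmn2r53. With CPM divided by coding length, an alternative added after the exon lengths had been seen, Vmn2r65 averaged 7.28 CPM per coding kilobase and ranked 39 of 121 genes, and Vmn2r116 averaged 6.38 and ranked 49. On that scale Vmn2r88 averaged 35.3 and ranked 2, and Vmn2r53 averaged 16.6 and ranked 12. By these means over the 8 libraries, the order of Vmn2r88 over Vmn2r53 over the other 2 receptors held on both scales, and the order of Vmn2r116 and Vmn2r65 turned round between them. Single libraries departed from it. In flushed female replicate 2, Vmn2r116 (5.96 RPKM) was above Vmn2r53 (5.88 RPKM), and per coding kilobase Vmn2r65 was above Vmn2r116 in the male libraries and below it in the female ones.

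**Figure D1:**
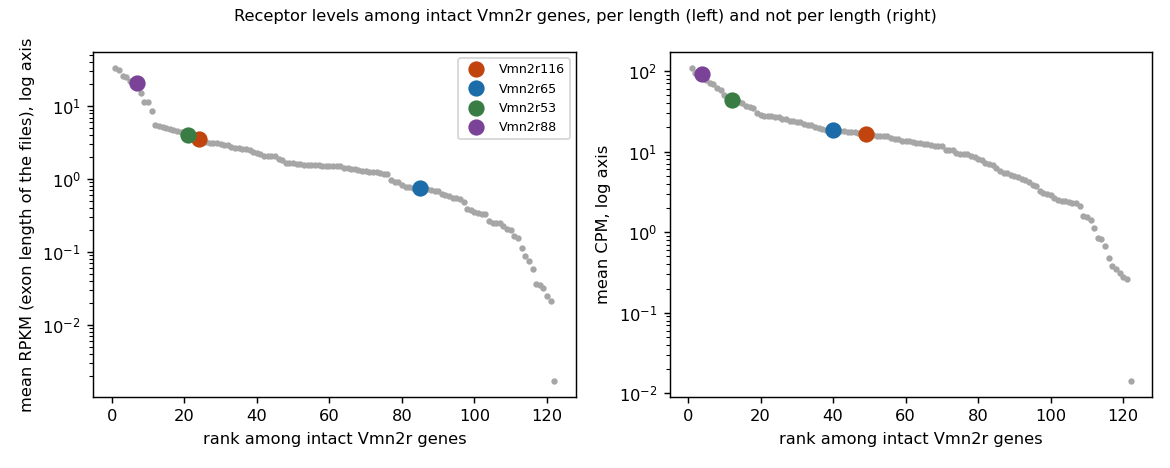
Mean level over 8 libraries of each intact Vmn2r gene against its rank, in RPKM (left) and CPM (right), both on log axes, with the 4 receptors coloured. Vmn2r65 stands at rank 85 by RPKM and 40 by CPM, and Vmn2r88 at rank 7 and 4.

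All 4 receptors were higher in flushed libraries than in non-flushed pools, by 2.11-fold to 2.59-fold. So was most of the family, since 89.6% of the other intact Vmn2r genes passed the same test in that direction (103 of 115), against 22.6% of all genes tested (4656 of 20601). The rise of the 4 is therefore one that most intact Vmn2r genes showed. It was not confined to that family. Of 120 intact Vmn1r genes tested, the other vomeronasal receptor family, 80 were called higher and 0 lower, with a median log2 difference of 0.75. All p values adjusted over genes come from edgeR's quasi-likelihood test with Benjamini-Hochberg adjustment, and log2 differences are given with their standard error. In whole tissue, more cells expressing a receptor and more RNA per cell cannot be told apart. Preparation cannot be told apart from the number of mice in a library, nor from the sequencing lane and the dated processing folder that the file headers record.

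Vmn2r116, the ESP1 receptor, had 19.8 and 17.4 CPM in flushed males and 27.5 and 24.3 CPM in flushed females, against 8.85 and 9.59 CPM in male pools and 11.3 and 12.3 CPM in female pools. The lowest flushed library was above the highest pool, and females lay above males within each preparation. The log2 difference of flushed libraries over pools was 1.08 ± 0.084, a 2.11-fold rise (adjusted p = 2.33e-05, edgeR).

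Vmn2r65, the receptor tied to submandibular gland protein C, had 29.0 and 25.3 CPM in flushed males and 26.1 and 23.9 CPM in flushed females, against 12.6 and 10.9 CPM in male pools and 9.05 and 10.8 CPM in female pools. The 4 flushed libraries lay close together and far from the pools, and the sexes overlapped among the flushed libraries. Flushed libraries exceeded pools by a log2 difference of 1.27 ± 0.092, a 2.42-fold rise (adjusted p = 1.91e-05, edgeR).

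Vmn2r53, the receptor of the rat tear protein, had 50.6 and 58.9 CPM in flushed males and 64.0 and 63.6 CPM in flushed females, against 27.0 and 26.6 CPM in male pools and 29.2 and 29.5 CPM in female pools. Both females were above both males in each preparation, and the pools of a sex were nearly equal. The log2 difference of flushed libraries over pools was 1.08 ± 0.061, a 2.11-fold rise (adjusted p = 1.44e-05, edgeR).

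Vmn2r88, the haemoglobin receptor, had 146 and 111 CPM in flushed males and 142 and 125 CPM in flushed females, against 53.3 and 51.2 CPM in male pools and 47.8 and 50.1 CPM in female pools. The flushed males spanned the flushed females, and the pools of both sexes lay within a few CPM of each other. Flushed libraries exceeded pools by a log2 difference of 1.37 ± 0.088, a 2.59-fold rise (adjusted p = 1.44e-05, edgeR).

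**Figure D2:**
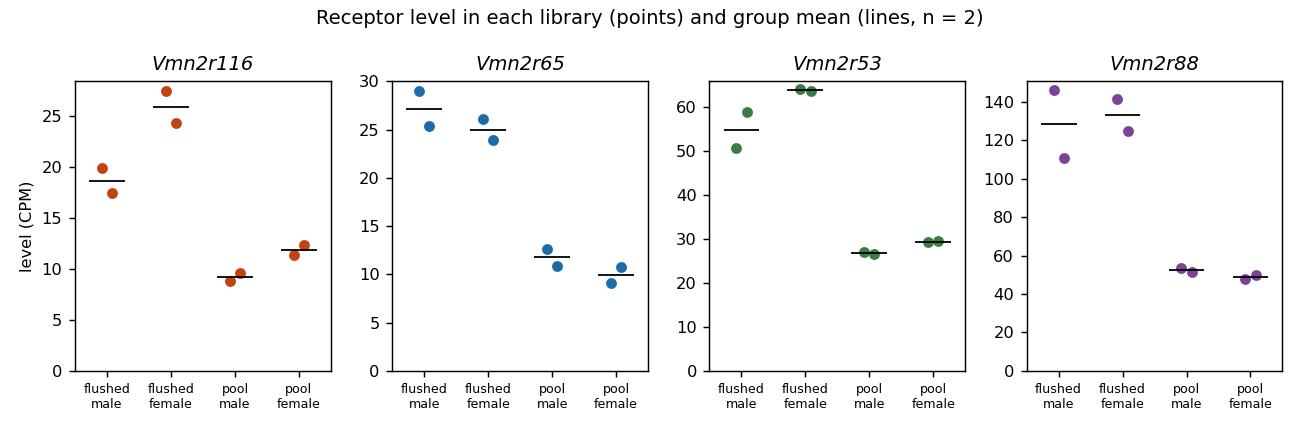
Level in CPM of each receptor in every library (points) with the mean of each group (lines, n = 2), for flushed males and females and for non-flushed pools of males and females. Vmn2r88 lies at 111 to 146 CPM in flushed libraries against 47.8 to 53.3 CPM in pools.

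Within the family, Vmn2r88 and Vmn2r65 were toward the upper end of the preparation difference. Over the 119 intact Vmn2r genes tested the log2 difference had a median of 0.95, quartiles of 0.75 and 1.20 and a range of -0.29 to 1.67. Counted from the highest, Vmn2r88 ranked 5, Vmn2r65 ranked 17, Vmn2r116 ranked 39 and Vmn2r53 ranked 41. The difference was also called for all 4 receptors within each sex. Of 20601 genes, 5086 were called within males and 5533 within females, in either direction. The log2 difference was 1.02 in males and 1.14 in females for Vmn2r116, and 1.21 in males and 1.34 in females for Vmn2r65. It was 1.03 in males and 1.12 in females for Vmn2r53, and 1.30 in males and 1.45 in females for Vmn2r88.

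When each library was scaled to its summed count of the other 118 intact Vmn2r genes, so that a receptor moving with its family shows no change, Vmn2r88 and Vmn2r65 still rose. The log2 difference of flushed libraries over pools was 0.43 ± 0.077 for Vmn2r88 (adjusted p = 0.000223, edgeR) and 0.33 ± 0.094 for Vmn2r65 (adjusted p = 0.00546, edgeR). It was 0.13 ± 0.089 for Vmn2r116 (adjusted p = 0.177, edgeR) and 0.14 ± 0.101 for Vmn2r53 (adjusted p = 0.207, edgeR), neither past the threshold of 0.05. On this scale 22.6% of the other intact Vmn2r genes were called higher (26 of 115) and 15 lower, 35.7% in all. Of all genes tested 0.888% were called higher (183 of 20601) and 17066 lower, 83.7% in all, since the scale follows a family that rose. With the summed count of family C genes as the scale instead, Vmn2r116 (0.23, adjusted p = 0.0301) and Vmn2r53 (0.24, adjusted p = 0.0480, edgeR) were called too. That scale called 16657 of 20601 genes in either direction. On the scale of all genes, family C had a median preparation difference of 0.86, against 0.94 for the other intact Vmn2r genes.

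The same contrast shows in the shares of the receptors in all intact Vmn2r counts, for which exact binomial 95% intervals cover counting error only. Vmn2r88 took 4.65% (4.50 to 4.80) and 4.08% (3.92 to 4.24) in flushed males and 4.27% (4.13 to 4.42) and 4.32% (4.18 to 4.47) in flushed females. In male pools it took 3.47% (3.26 to 3.69) and 3.31% (3.10 to 3.54), and in female pools 3.23% (3.04 to 3.42) and 3.09% (2.90 to 3.29). The shares of Vmn2r88 in flushed libraries were all above those in pools. The 4 receptors together took 7.81% (7.63 to 8.00) to 8.19% (7.99 to 8.39) in flushed libraries and 6.33% (6.07 to 6.61) to 6.63% (6.35 to 6.93) in pools.

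The shares of Vmn2r53 did not separate the preparations, at 1.61% (1.52 to 1.70) to 2.20% (2.09 to 2.31) in flushed libraries and 1.72% (1.57 to 1.89) to 1.97% (1.83 to 2.13) in pools. Those of Vmn2r65 were 0.788% (0.728 to 0.853) to 0.933% (0.857 to 1.01) in flushed libraries and 0.610% (0.529 to 0.699) to 0.824% (0.722 to 0.936) in pools, and they overlapped in 1 male pool. Those of Vmn2r116 were 0.632% (0.578 to 0.690) and 0.641% (0.579 to 0.708) in flushed males and 0.830% (0.768 to 0.896) and 0.841% (0.776 to 0.909) in flushed females. Vmn2r116 took 0.578% (0.493 to 0.673) and 0.621% (0.530 to 0.722) in male pools and 0.765% (0.675 to 0.864) and 0.758% (0.665 to 0.859) in female pools. The sexes thus lay apart for Vmn2r116 whichever the preparation, although the intervals of some male and female libraries overlapped.

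The close relatives of the receptors did not all move alike. For Vmn2r116, Vmn2r117 (1.27 ± 0.12) and Vmn2r115 (1.36 ± 0.092) also rose in flushed libraries. For Vmn2r65, Vmn2r77 (1.21 ± 0.13), Vmn2r78 (1.23 ± 0.093) and its genomic neighbour Vmn2r66 (1.36 ± 0.088) rose by nearly the amount of Vmn2r65 itself. The relatives of Vmn2r53 rose far less, Vmn2r54 by 0.19 ± 0.063 (adjusted p = 0.0347, edgeR) and Vmn2r56 by 0.33 ± 0.12 (adjusted p = 0.0424, edgeR). The relatives of Vmn2r88 were near the family median, at 0.90 ± 0.071 for Vmn2r-ps159, 0.90 ± 0.092 for Vmn2r121 and 0.89 ± 0.089 for the neighbour Vmn2r89. On the scale of the other Vmn2r genes Vmn2r54 fell by 0.75 (adjusted p = 5.38e-06, edgeR) and Vmn2r56 fell by 0.61 (adjusted p = 0.000371, edgeR). The relatives of Vmn2r65 rose on that scale as Vmn2r65 did, Vmn2r77 by 0.26 (adjusted p = 0.0470), Vmn2r78 by 0.30 (adjusted p = 0.0299) and Vmn2r66 by 0.42 (adjusted p = 0.00139, edgeR). Those of Vmn2r116 rose too, Vmn2r117 by 0.32 (adjusted p = 0.0126) and Vmn2r115 by 0.42 (adjusted p = 0.000735, edgeR), while Vmn2r116 itself did not pass. The relatives of Vmn2r88 were at -0.04 for Vmn2r-ps159, -0.05 for Vmn2r121 and -0.05 for Vmn2r89, none of them called.

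**Figure D3:**
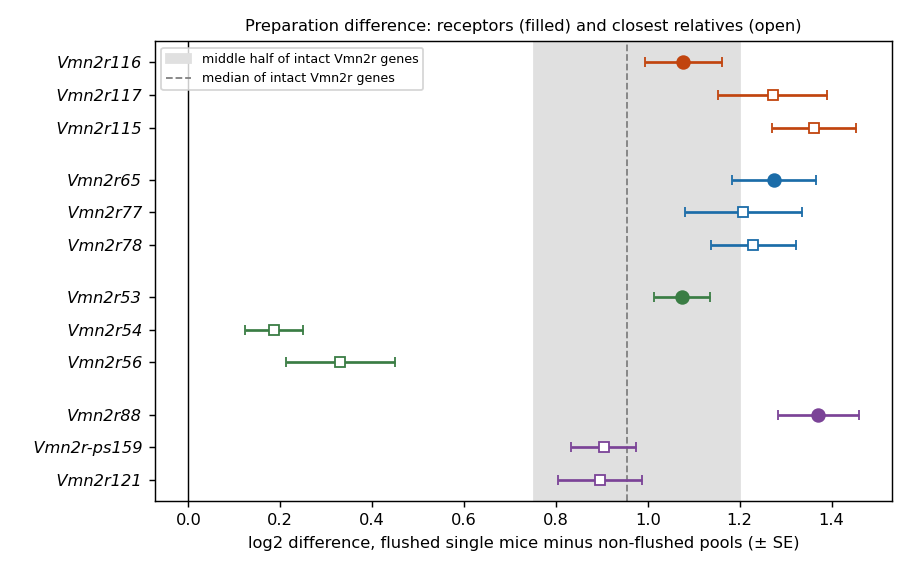
Log2 difference of flushed libraries over non-flushed pools, with its standard error, for each receptor (filled circles) and its closest 2 relatives (open squares), beside the median (dashed line) and the quartiles (grey band) of intact Vmn2r genes. Vmn2r54 (0.19) and Vmn2r56 (0.33) lie below the band of 0.75 to 1.20, while Vmn2r53 (1.08) lies inside it.

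The contrast of Vmn2r53 with its neighbour is visible in each library. Vmn2r54 was at 21.9 to 22.9 CPM in flushed libraries and 18.5 to 20.7 CPM in pools. The ratio of Vmn2r53 to Vmn2r54 counts was 2.21 and 2.65 in flushed males and 2.81 and 2.91 in flushed females, against 1.35 and 1.28 in male pools and 1.58 and 1.50 in female pools. The mean log2 ratio was 0.89 higher in flushed libraries, with no overlap (two-sided exact permutation test, 4 against 4, p = 0.0286, adjusted p = 0.114 over 16 tests on 8 pairs). The ratio of Vmn2r53 to Vmn2r56 was 4.54 to 6.52 in flushed libraries and 2.99 to 4.22 in pools, and that of Vmn2r88 to Vmn2r-ps159 was 1.18 to 1.45 in flushed libraries and 0.899 to 1.01 in pools. Both had the same exact p and adjusted p. Libraries were permuted without regard to sex, and 0.0286 is the smallest p that such a test allows. None of these ratios passed after adjustment, and they were chosen after the values had been seen.

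By sex, none of the 4 receptors was called, and Vmn2r116 was the nearest to the threshold. The log2 difference of males over females was -0.42 ± 0.083 for Vmn2r116 (adjusted p = 0.180, edgeR). All male libraries were below both females of the same preparation. The difference was -0.47 within flushed libraries and -0.35 within pools. The closest relatives of Vmn2r116 lay in the same direction and were not called. They were at -0.23 ± 0.12 for Vmn2r117 (adjusted p = 0.68, edgeR) and -0.23 ± 0.091 for Vmn2r115 (adjusted p = 0.55, edgeR). Of all genes tested 0.116% were called by sex (24 of 20601), and 2.61% of the other intact Vmn2r genes (3 of 115). Vmn2r116 passed in 2 of the 10 alternatives, with DESeq2 (-0.42, adjusted p = 0.0350), which called 124 genes, and with no filter on low counts (-0.42, adjusted p = 0.00186, edgeR), which called 784. Over all 10 alternatives its adjusted p ran from 0.00186 to 0.907, and its direction was the same in each.

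The other 3 receptors differed less between the sexes. The log2 difference of males over females was 0.18 ± 0.091 for Vmn2r65 (adjusted p = 0.677, edgeR), -0.18 ± 0.060 for Vmn2r53 (adjusted p = 0.487, edgeR) and 0.02 ± 0.087 for Vmn2r88 (adjusted p = 0.984, edgeR). Among the 119 Vmn2r genes tested, counted from the most male-biased, Vmn2r65 ranked 13, Vmn2r88 ranked 37, Vmn2r53 ranked 89 and Vmn2r116 ranked 115, in a family with a median of -0.05 and quartiles of -0.19 and 0.05. Scaled to the other Vmn2r genes, the difference of males over females was -0.37 for Vmn2r116 (adjusted p = 0.398), 0.23 for Vmn2r65 (adjusted p = 0.834), -0.13 for Vmn2r53 (adjusted p = 0.937) and 0.06 for Vmn2r88 (adjusted p = 0.955, edgeR), where 0.0874% of all genes were called.

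The sex difference did not depend detectably on the preparation. The interaction, the sex difference in flushed libraries minus that in pools, was -0.12 ± 0.18 for Vmn2r116, -0.13 ± 0.19 for Vmn2r65, -0.09 ± 0.13 for Vmn2r53 and -0.15 ± 0.18 for Vmn2r88 on the log2 scale. Each had an adjusted p of 1.00 in edgeR, and 0.0485% of all genes were called. With 2 libraries in each group, the standard errors of the interaction exceeded its size for each receptor.

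**Figure D4:**
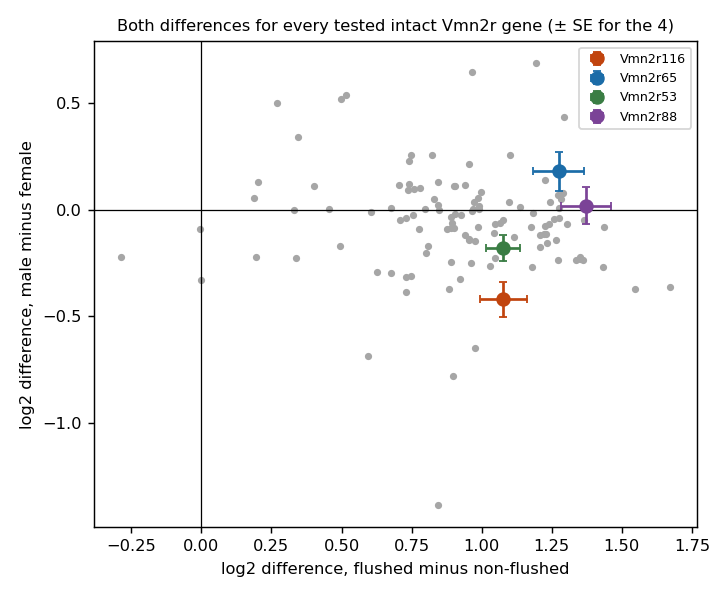
Log2 difference of males over females against that of flushed libraries over non-flushed pools for the 119 intact Vmn2r genes tested (grey), with the 4 receptors coloured and shown with their standard errors. All 4 lie to the right of 0, and Vmn2r116 lies lowest of them, at -0.42.

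Set against each other by counts within a library, Vmn2r116 and Vmn2r65 exchanged their order between the sexes. Per exon length they did not, with Vmn2r116 (1.92 to 5.96 RPKM) above Vmn2r65 (0.370 to 1.19 RPKM) in every library. The ratio of Vmn2r116 to Vmn2r65 counts was 0.684 and 0.687 in flushed males and 1.05 and 1.02 in flushed females, and 0.699 and 0.884 in male pools and 1.25 and 1.14 in female pools. It was below 1 in every male library and above 1 in every female library. The mean log2 ratio of males minus females was -0.60, a 1.52-fold lower ratio in males (two-sided exact permutation test, 4 against 4, p = 0.0286, adjusted p = 0.171 over 12 tests on 6 pairs). The ratio of Vmn2r116 to Vmn2r88 was 0.136 and 0.157 in flushed males, 0.194 and 0.195 in flushed females, 0.166 and 0.187 in male pools and 0.237 and 0.246 in female pools. It too was lower in all males than in any female, by 0.43 on the log2 scale (exact permutation p = 0.0286, adjusted p = 0.171). The other 10 tests on pairs of receptors had overlapping groups, and these pair tests were added after the values had been seen. For the sex comparisons, libraries were permuted without regard to preparation.

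**Figure D5:**
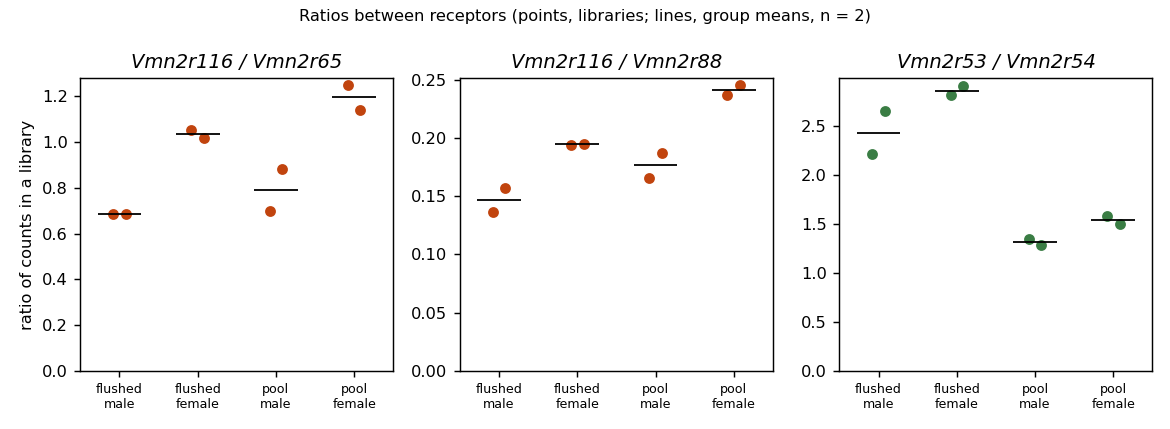
Ratio of counts within each library (points) and group means (lines, n = 2) for Vmn2r116 over Vmn2r65, Vmn2r116 over Vmn2r88 and Vmn2r53 over Vmn2r54. The left ratio is below 1 in all 4 male libraries, and the right ratio is at least 2.21 in the 4 flushed libraries and at most 1.58 in the 4 pools.

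A sex difference in a relative entered 1 further ratio. Vmn2r121, an X-linked relative of Vmn2r88 with 89.7% protein identity, was lower in males by a log2 difference of -0.78 ± 0.091 (adjusted p = 0.0113, edgeR). The ratio of Vmn2r88 to Vmn2r121 was 2.10 to 3.14 in males and 1.26 to 1.85 in females.

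Genes that accompany these receptors in basal neurons moved in part with them. All 6 family C co-receptors measured rose in flushed libraries, with a median log2 difference of 0.86, from 0.71 ± 0.065 for Vmn2r1 to 1.29 ± 0.11 for Vmn2r5. Of the 9 H2-Mv genes, the MHC class Ib genes expressed in subsets of basal neurons, 1 rose, H2-M9 (0.34 ± 0.11, adjusted p = 0.0250, edgeR), and the median was -0.01. Of 6 genes listed for basal neurons, only B2m rose (0.46 ± 0.085, adjusted p = 0.00163, edgeR), and Calr4 fell (-0.29 ± 0.093, adjusted p = 0.0290, edgeR). Gnao1 (-0.15 ± 0.066, adjusted p = 0.0858, edgeR), Gng8 (-0.31), Tfap2e (-0.23) and Robo2 (0.02) did not pass. Of 9 general neuronal markers tested, 2 rose, Snap25 (0.50) and Syt1 (0.51), and 3 fell, Tubb3 (-0.41), Ano1 (-0.20) and Ncam1 (-0.16). The other 4 did not pass, and the median was -0.15. Of 5 apical neuron markers, 1 rose, Meis2 (0.24), and 2 fell, Pde4a (-0.41) and Gnai2 (-0.36). The median over all genes tested was -0.02, and of these 20601 genes 4656 (22.6%) were called higher and 4721 lower.

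The genes of the cues themselves were read in the same libraries. Esp1, which encodes the Vmn2r116 ligand, was at 0 counts in all 8 libraries, and Smgc, which encodes submandibular gland protein C, was at 0 to 0.450 CPM in flushed libraries and 0.051 to 0.216 CPM in pools, too low to test. The haemoglobin genes Hba-a1, Hba-a2, Hbb-bs and Hbb-bt summed to 567 and 597 CPM in flushed males and 110 and 99.3 CPM in flushed females, against 1789 and 1986 CPM in male pools and 1593 and 1635 CPM in female pools. All 4 fell in flushed libraries, Hba-a1 by a log2 difference of -2.80 ± 0.42 (adjusted p = 0.000498, edgeR). Of all genes tested, 4721 of 20601 were called lower there. Vmn2r88, the haemoglobin receptor, was higher in flushed libraries, where haemoglobin RNA was lower. This was not particular to Vmn2r88, since the other receptors and 103 of 115 other intact Vmn2r genes were called higher there too. Within flushed libraries, the Vmn2r88 levels of males spanned those of females, while summed haemoglobin RNA was higher in both males. The values are of haemoglobin RNA and not of the protein cue. Whether blood left in the tissue bears on the receptor levels was not tested.

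The genes whose level ran most closely with each receptor were found by Pearson's r of log2(CPM + 0.5) over the 8 libraries, among 14182 protein-coding genes. These libraries fall into 2 preparations and share them, so r is given as a description only. The 3 closest were Vmn2r40 (0.999), Vmn2r31 (0.993) and Arglu1 (0.991) for Vmn2r116, and Lcorl (0.997), Rhoq (0.997) and Vmn2r81 (0.996) for Vmn2r65. They were Acer3 (0.997), Luc7l3 (0.994) and Vmn2r114 (0.993) for Vmn2r53, and Vmn2r122 (0.999), Paip1 (0.998) and Vmn2r6 (0.997) for Vmn2r88. After the family mean of each library was subtracted, the closest of 118 Vmn2r genes was Vmn2r40 for Vmn2r116 (0.940), Vmn2r5 for Vmn2r65 (0.915), Vmn2r114 for Vmn2r53 (0.921) and Vmn2r17 for Vmn2r88 (0.969).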

How the data were processed

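Libraries were made from polyA-selected RNA and read as stranded single ends of 100 bases, per the labels' protocols. The submitters' processing notes name STAR 2.7.1a, featureCounts 1.6.5 and the build GRCm38 (mm10). The values that the authors deposited are estimated counts, in which multi-mapping reads were split between genes, and reads on more than 1 gene were left out, per the file headers. The Length column deposited beside them is the exon length used for RPKM, per the file headers.

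Symbols came from GENCODE M21 by gene identifier. Counts were rounded and fitted in edgeR 4.0.16 (R 4.3.3) with sex and preparation as additive terms, TMM factors and filterByExpr, and adjusted over all genes tested. The SE is the log2 difference divided by the square root of F. CPM and RPKM use TMM-scaled totals and unrounded counts. The fitting script was also tested on simulated data. Alternatives were DESeq2 1.42.0, limma-voom 3.58.1 and other scalings, filters and left-out libraries. Protein identity was meant to come from RefSeq proteins, and translated GENCODE M21 coding sequences were used instead, aligned with Biopython 1.88. For Vmn2r53, the first coding exon of that transcript lies outside the gene model of the count files.

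The genes named are the 4 receptors, the 2 relatives with the most identical protein and the nearest Vmn2r gene of each, genes of fixed lists with the smallest p, the cue genes and the 3 genes of most like level. The receptors, lists and tests were chosen with earlier results of these data known. Libraries of 1 group are separate mice or pools per the labels. Vmn2r7 was not analysed here.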

Additional observations from a re-analysis of the deposited data

How the results depend on the processing

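The preparation difference kept its direction and its call for all 4 receptors under each of 9 alternatives and with each library left out. Of all genes, the alternatives called from 5086 of 20601 (within males) to 9938 of 32514 (no low-count filter), in either direction. With a library left out, 7734 of 21291 to 9047 of 21283 genes were called. The log2 difference with a library left out was 1.02 to 1.13 for Vmn2r116, 1.20 to 1.35 for Vmn2r65, 1.04 to 1.12 for Vmn2r53 and 1.30 to 1.46 for Vmn2r88. With libraries scaled to neuronal markers, where the median of all genes was 0.10, it was 1.20, 1.40, 1.20 and 1.49. The sex difference of Vmn2r116 was called with DESeq2 (-0.42) and with no low-count filter (-0.42), and the cause was not tested. That of Vmn2r88 turned to -0.053 within flushed libraries and ran from -0.045 to 0.112 with a library left out, and the interaction ran from -0.203 to 0.022 for Vmn2r53 and from -0.355 to 0.038 for Vmn2r88, none of them called. Scaling to family C genes, which called 16657 of 20601 genes, called Vmn2r116 (0.23) and Vmn2r53 (0.24) too.

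Ranks by CPM were 49 for Vmn2r116, 40 for Vmn2r65, 12 for Vmn2r53 and 4 for Vmn2r88, and per coding kilobase 49, 39, 12 and 2. As shares of Vmn1r and Vmn2r counts together they took 0.568, 0.629, 1.52 and 3.05% on average, against 0.708, 0.784, 1.90 and 3.80% of Vmn2r counts, by construction. The number of genes called by sex was 24, and 3 without genes on X and Y, 11 with neuronal marker scaling and 8 to 25 with a library left out. The interaction called 10 genes, 28 with DESeq2 and 263 with no low-count filter. No paired analysis was possible because the labels give no link between libraries of different groups.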
